A study of Mus musculus with 6 samples.

Results

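This account follows 10 mouse genes of fibroblast growth factor (FGF) signalling: the receptors Fgfr1, Fgfr2 and Fgfr3, the ligands Fgf1, Fgf2 and Fgf9, the feedback inhibitors Spry1, Spry2 and Spry4, and the phosphatase gene Dusp6. They were chosen by name, as every non-control probe whose accession belongs to one of these genes. All 10 were found, with 20 of the 41174 probes on the array, and 19 of those 20 probes passed the filter on dim signal. In the fit each gene was represented by its brightest kept probe, so that the 10 genes are 10 of 20091 features tested.

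Cortical and striatal astrocytes from wild-type C57BL/6J pups at postnatal day 1 were grown in primary culture with 10% serum. All 3 groups had received 5 µM cytosine arabinoside, which kills dividing cells, for 2 days from about day 7. Control cultures stayed in control medium (the protocol gives them DMSO at the matching concentration). Ro cultures received 1 µM Ro3303544, a small-molecule inhibitor of the kinase GSK-3, for 48 h from day 13 in vitro. Washout cultures received the same treatment and were then kept for 48 h without the compound. By these times the control and Ro cultures were 15 days in vitro at harvest and the washout cultures 17, with no control of that age. Each group had 2 arrays. Nothing in the labels ties the 2 arrays to separate litters or dissections, so that p-values measure the spread between these arrays only, which may be technical.

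FGF ligands bind receptor tyrosine kinases at the cell surface together with heparan sulfate chains, and the activated receptors signal through the adaptor FRS2 and the Ras-ERK cascade. ERK in turn switches on genes that damp the same cascade: Sprouty proteins act upstream at the level of Ras and Raf, and DUSP6 removes phosphate from ERK in the cytoplasm. Because ERK drives them, Spry and Dusp6 transcripts are widely read as markers of the pathway's output, and Fgfr3 is a receptor that astrocytes are known to carry.

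A level is the log2 of a probe's intensity minus the log2 of the 75th percentile of its array. A difference is the log2 level of the first group minus that of the second, as the mean of 2 arrays each, with its standard error (SE) from limma, and adjusted p is limma's after Benjamini-Hochberg correction over all 20091 features, with 0.05 as the threshold. The 75th percentile of intensity lay between 631 and 807 on the 6 arrays, 60.4% to 65.2% of probes were well above background, and the 2 arrays of a group correlated across features at r = 0.992 to 0.996. Washout cultures were hybridised on a slide of their own (slide 2) and the other groups on slide 1, so that washout, slide and age cannot be told apart. With 2 arrays against 2 the smallest two-sided p of an exact permutation test is 0.333, and each call therefore uses the variance limma shares between features.

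With the inhibitor 5 of the 10 genes fell (Fgf1, Dusp6, Spry2, Fgfr3 and Fgfr1) and 1 rose (Fgf9), where 22.7% of all features were lower, 19.4% higher and 42.1% called in either direction. After washout 7 of the 10 were higher than in Ro and 0 lower in limma (8 and 0 at an unadjusted p under 0.05), where 21.4% of features were higher, 20.1% lower and 41.5% called in all. Against control, washout cultures had 4 genes higher (Spry4, Fgf9, Dusp6 and Spry1) and 1 lower (Fgf1), where 4.13% of features were higher, 5.97% lower and 10.1% called in all. The median difference of the 10 genes was -0.48 for Ro against control, 0.58 for washout against Ro and 0.15 for washout against control, and that of all features was 0, -0.02 and -0.01. The comparisons share groups, so that a low value in Ro enters the first and the second alike.

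**Figure D1:**
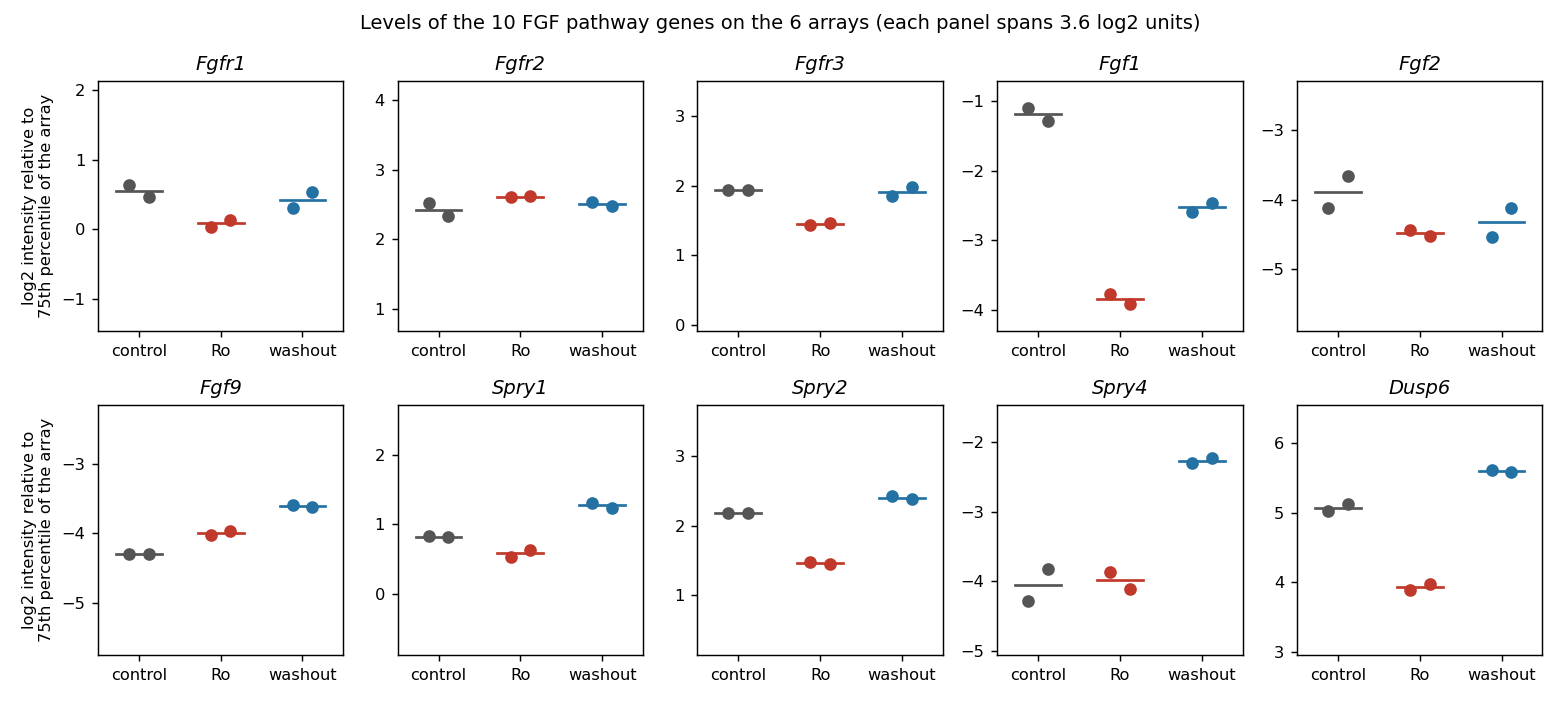
Levels of the 10 genes on the 6 arrays. The vertical axis is log2 intensity relative to the array's 75th percentile, every panel spans 3.6 log2 units, points are single arrays and lines are group means. Fgf1 was lowest in Ro, at -3.77 and -3.92, and Spry4 stood apart in washout, at -2.30 and -2.23.

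Among the ligands, Fgf1, which can bind every FGF receptor type, showed the largest difference of the 10 genes. Its level was -1.10 and -1.29 on the control arrays, -3.77 and -3.92 on the Ro arrays, and -2.59 and -2.46 on the washout arrays. The 3 groups did not overlap, with Ro lowest and washout between Ro and control. Fgf1 fell by 2.65 ± 0.11 (SE) with the inhibitor, a 6.28-fold drop (adjusted p = 0.00018). After washout it rose by 1.32 ± 0.11 over Ro (2.50-fold, adjusted p = 0.00089). It was still lower than in control, by -1.33 ± 0.11 (2.51-fold, adjusted p = 0.0077). With a normexp background the 3 differences were smaller, at -1.76, 0.79 and -0.97, and all passed the test. A second, dimmer Fgf1 probe passed the filter only through control, at -3.21 on both arrays. There 1 of 2 Ro arrays (at -5.25 and -5.14) and neither washout array (-5.06 and -4.83) were well above background. On this dimmer probe alone, the signal was lower in washout than in control by an approximate bound of 3.04-fold, and this bound was not tested. It is approximate because washout 2 read above the lowest signal well above background on that array (-4.87). With the mean of both probes the step from Ro to washout was 0.78.

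By Euclidean distance over the 6 arrays, with each feature centred on its control mean, the 3 genes with the pattern closest to Fgf1 among 13052 other features with a symbol were Cd34 (distance 0.42), Mcam (0.47) and Arhgef15 (0.54). Cd34 was at -2.47 in Ro and at -1.13 in washout relative to control (adjusted p = 0.000087 and 0.0057). These likenesses are descriptions of 3 groups of 2 arrays.

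Fgf2, the basic FGF that is commonly added to neural cell cultures, was dim. Its level was -4.12 and -3.65 in control, -4.43 and -4.52 in Ro, and -4.53 and -4.12 in washout. The Ro arrays lay below the control arrays, and washout overlapped both groups. The difference for Ro against control was -0.59 ± 0.21 (95% interval -1.11 to -0.06, adjusted p = 0.075), which missed the threshold. This probe was printed as 10 spots per array, and the spread of its spots within an array had an SD between 0.12 and 0.33, and the medians over spots on the 2 control arrays were -4.10 and -3.64. The other Fgf2 probe read -4.37 and -4.46 in control and was not well above background on any Ro or washout array. It thus passed the filter only through control. Its signal was lower in Ro by an approximate bound of 1.85-fold, given here without a test. On the probe used, the difference was -0.82 without control 1 (adjusted p = 0.049), -0.35 without control 2 (adjusted p = 0.25) and -0.29 with a normexp background (adjusted p = 0.083), so that its size rested on the control arrays.

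Fgf9, first described as a glia-activating factor, was the only member to rise with the inhibitor in the fit. Its level was -4.30 on both control arrays, -4.03 and -3.97 in Ro, and -3.60 and -3.62 in washout. The groups did not overlap and stood in the order control, Ro, washout. The rise was 0.30 ± 0.07 for Ro against control (adjusted p = 0.022), 0.39 ± 0.07 for washout against Ro (adjusted p = 0.0088) and 0.69 ± 0.07 for washout against control (1.61-fold, adjusted p = 0.011). These calls changed with the background correction. With a normexp background the differences were -0.02, 0.26 and 0.24 (adjusted p = 0.91, 0.087 and 0.21). The call against control was lost without control 1, control 2, Ro 1 or Ro 2 for Ro (adjusted p = 0.078, 0.077, 0.093 and 0.14), and without control 1 or control 2 for washout (adjusted p = 0.055 and 0.067). The step from Ro to washout was lost without Ro 1 (adjusted p = 0.074). Dim spots around the Fgf9 spot were raised by 0.62 and 0.39 on the washout arrays relative to the other arrays, where the median over all positions was 0.33 and 0.29. The part of this local brightness in the Fgf9 difference was not tested.

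Among the receptors, Fgfr3 and Fgfr1 fell with the inhibitor and Fgfr2 did not pass the test. Fgfr3 had a level of 1.93 and 1.94 in control, 1.43 and 1.46 in Ro, and 1.85 and 1.98 in washout. Both Ro arrays lay below all others, and washout enclosed the control values. Fgfr3 fell by 0.49 ± 0.08 (1.40-fold, adjusted p = 0.0071) and rose again by 0.47 ± 0.08 after washout (adjusted p = 0.0078). The difference between washout and control was -0.02 ± 0.08, with a 95% interval of -0.22 to 0.18. The 2 other probes of Fgfr3 gave -0.34 ± 0.09 (adjusted p = 0.032) and, for the dimmest, -0.33 ± 0.26 (adjusted p = 0.37) for Ro against control. Without Ro 1 the fall was -0.47 (adjusted p = 0.055) and the return 0.45 (adjusted p = 0.059), and with the mean of the 3 probes they were -0.38 (adjusted p = 0.056) and 0.28 (adjusted p = 0.12).

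Fgfr1, the most widely expressed of the receptors in the brain, had a level of 0.63 and 0.46 in control, 0.03 and 0.13 in Ro, and 0.30 and 0.54 in washout. On this probe the Ro arrays were lowest and the washout arrays overlapped control. Fgfr1 fell by 0.47 ± 0.12 with the inhibitor (1.38-fold, adjusted p = 0.028). The step from Ro to washout was 0.34 ± 0.12 (adjusted p = 0.067). Washout against control gave -0.13 ± 0.12 (95% interval -0.42 to 0.17). The call for Ro was lost without control 1, control 2, Ro 1 or Ro 2 (adjusted p = 0.11, 0.054, 0.13 and 0.084), with median centring (adjusted p = 0.066), with no filter on dim probes (adjusted p = 0.079) and with the authors' values (adjusted p = 0.074). The 2 other Fgfr1 probes both fell, by 0.72 ± 0.09 (adjusted p = 0.0037) and 0.63 ± 0.12 (adjusted p = 0.015). On both, the washout arrays lay below the control arrays without overlap. These differences were -0.33 ± 0.09 (adjusted p = 0.093) and -0.31 ± 0.12 (adjusted p = 0.19) and missed the threshold. From Ro to washout the same probes rose by 0.39 ± 0.09 (adjusted p = 0.024) and 0.32 ± 0.12 (adjusted p = 0.1).

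Fgfr2, a receptor also prominent in oligodendrocytes, had a level of 2.53 and 2.34 in control, 2.61 and 2.62 in Ro, and 2.54 and 2.48 in washout. The Ro arrays lay just above the others, and the other groups overlapped. The difference for Ro against control was 0.18 ± 0.09 (95% interval -0.05 to 0.41, adjusted p = 0.17). A probe of Fgfr2 printed as 10 spots read -1.03 and -1.14 in control, -0.80 on both Ro arrays, and -1.30 and -0.94 in washout. Its spots had an SD of 0.02 to 0.07 within an array, which is technical spread only, and the 2 washout arrays lay on either side of the control arrays. The third Fgfr2 probe, the dimmest, gave -0.97 ± 0.22 for washout against Ro (adjusted p = 0.022), and the mean of the 3 probes gave -0.46 (adjusted p = 0.023), against -0.10 ± 0.09 on the probe used.

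**Figure D2:**
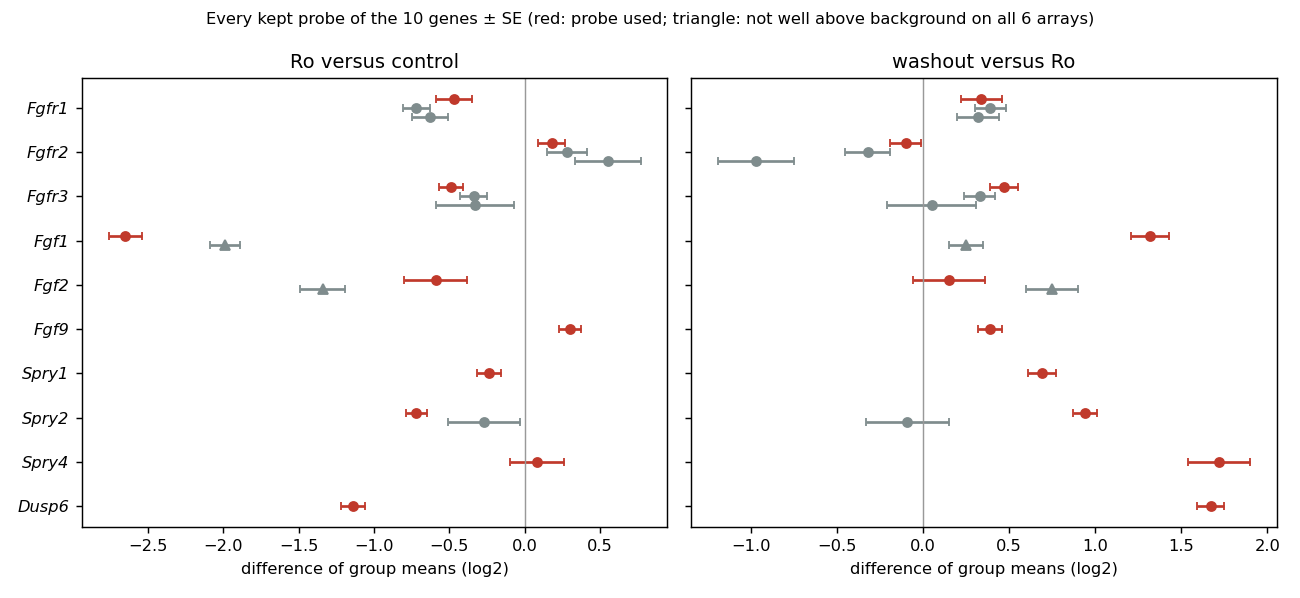
Differences of group means (log2, horizontal axis) ± SE for each of the 19 kept probes of the 10 genes, for Ro against control and washout against Ro. Red marks the probe used for the gene and triangles mark probes not well above background on all 6 arrays. All 3 Fgfr1 probes were lower in Ro, while the dim Spry2 probe (-0.27 ± 0.24) did not pass the test.

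The feedback genes Spry1, Spry2, Spry4 and Dusp6 all rose over Ro after washout, and Spry1, Spry4 and Dusp6 also stood above control. Dusp6 had a level of 5.02 and 5.13 in control, 3.89 and 3.97 in Ro, and 5.62 and 5.58 in washout. The groups did not overlap, and washout was highest. In intensity units Dusp6 was at 24300 and 22100 in control, 12000 and 12200 in Ro, and 37400 on both washout arrays, with no saturated spot. Dusp6 fell by 1.14 ± 0.08 with the inhibitor (2.21-fold, adjusted p = 0.00057) and rose by 1.67 ± 0.08 after washout (3.18-fold, adjusted p = 0.00024). Against control it was 0.53 ± 0.08 higher in washout (1.44-fold, adjusted p = 0.024).

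Spry2 was also lowest in Ro and highest in washout. Its level was 2.18 on both control arrays, 1.47 and 1.45 in Ro, and 2.43 and 2.38 in washout. Spry2 fell by 0.72 ± 0.07 (1.64-fold, adjusted p = 0.0013) and rose by 0.94 ± 0.07 after washout (1.92-fold, adjusted p = 0.00061). Both washout arrays lay above both control arrays, but the difference of 0.22 ± 0.07 (95% interval 0.05 to 0.39) missed the threshold (adjusted p = 0.11). A second Spry2 probe, at -2.25 and -1.59 in control, did not follow, with -0.27 ± 0.24 for Ro against control (adjusted p = 0.43) and -0.09 ± 0.24 for washout against Ro (adjusted p = 0.80). With the mean of both probes the rise after washout was 0.43 (adjusted p = 0.052).

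Spry1 had a level of 0.83 and 0.81 in control, 0.53 and 0.63 in Ro, and 1.31 and 1.24 in washout. The Ro arrays were lowest, and the groups did not overlap. The difference of -0.24 ± 0.08 for Ro against control missed the threshold (95% interval -0.43 to -0.05, adjusted p = 0.057). Spry1 rose by 0.69 ± 0.08 from Ro to washout (1.62-fold, adjusted p = 0.0021). In washout it was 0.45 ± 0.08 above control (1.37-fold, adjusted p = 0.031).

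Spry4 was dim in control and Ro and rose only after washout. Its level was -4.29 and -3.83 in control, -3.86 and -4.11 in Ro, and -2.30 and -2.23 in washout. Control and Ro overlapped (difference 0.08 ± 0.18, 95% interval -0.38 to 0.53), and both washout arrays lay far above them. Spry4 rose by 1.72 ± 0.18 over Ro (3.29-fold, adjusted p = 0.0018) and by 1.80 ± 0.18 over control (3.47-fold, adjusted p = 0.011). With a normexp background, the rise over control was 0.96, and with no filter its adjusted p was 0.056. The second Spry4 probe was not well above background on any array and was not tested. Washout 1 and washout 2 had bright regions that took in 3.84% and 0.825% of their spots, and 0 of the 38 spots of the 10 genes lay in them.

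The calls of Dusp6 and Spry1 against control were lost under several settings. Dusp6 lost its call without any 1 of control 1, control 2, Ro 1, Ro 2, washout 1 or washout 2 (adjusted p = 0.09, 0.077, 0.066, 0.066, 0.078 and 0.059), and so did Spry1 (adjusted p = 0.1, 0.12, 0.075, 0.075, 0.094 and 0.06), with fewer arrays to estimate the spread. Both were also lost with no filter on dim probes (adjusted p = 0.091 for Dusp6 and 0.096 for Spry1), and that of Spry1 with median centring (adjusted p = 0.055) and with the authors' values (adjusted p = 0.063). With single arrays left out, their differences ranged from 0.47 to 0.58 for Dusp6 and from 0.42 to 0.49 for Spry1. Spry4 and Fgf1 kept their calls against control when any single array was left out.

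**Figure D3:**
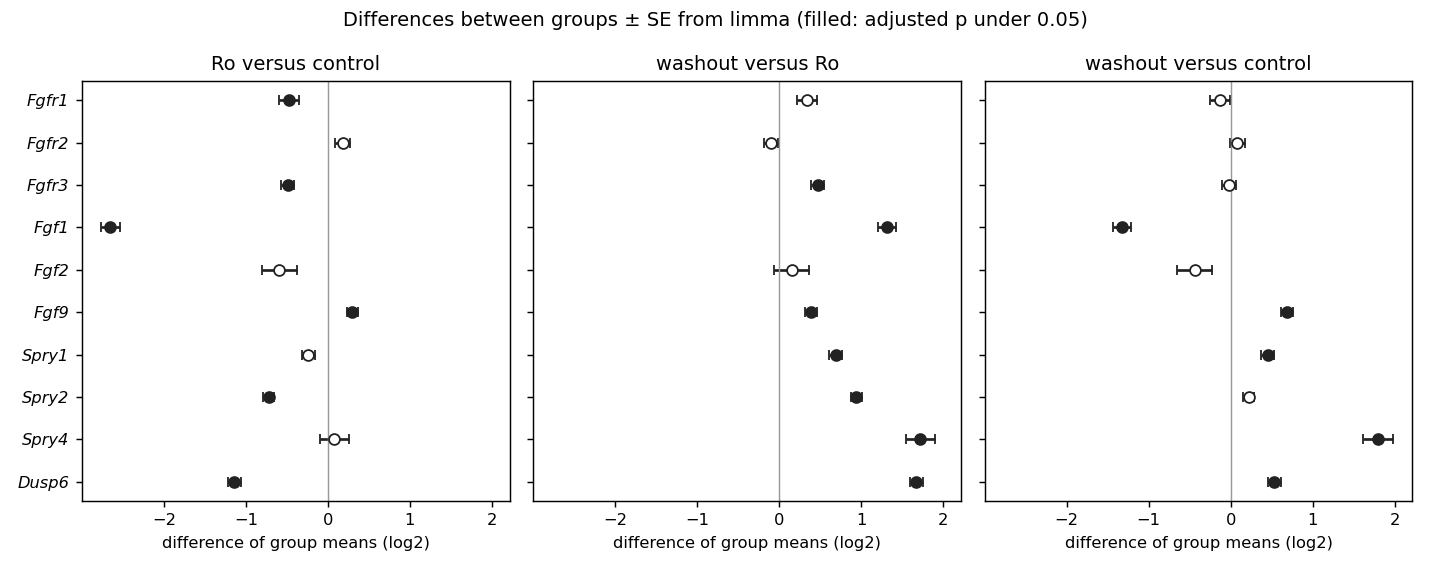
Differences of group means (log2, horizontal axis) ± SE from limma for the 10 genes in the 3 comparisons, with 2 arrays per group and filled points for adjusted p under 0.05. Fgf1 fell by 2.65 in Ro, and Spry4 rose by 1.80 over control in washout.

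The start regions of Dusp6, Spry1 and Spry2 are shown because these genes rose together after washout and belong to the feedback arm. Each window runs from 250 bases before to 50 bases after the annotated start, from the RefSeq promoter table (build GRCm38.p6), which holds 7 of the 10 genes. Spry4, the feedback gene with the largest rise, has no entry there, so that its start region was not examined. The windows are written 5′ to 3′ on the gene's strand. Capitals mark GGAA, the core that ETS factors, the transcription factors at the end of the ERK cascade, are known to bind, or TTCC, the same core on the other strand.
Dusp6 (chr10:99262981-99263280, plus strand): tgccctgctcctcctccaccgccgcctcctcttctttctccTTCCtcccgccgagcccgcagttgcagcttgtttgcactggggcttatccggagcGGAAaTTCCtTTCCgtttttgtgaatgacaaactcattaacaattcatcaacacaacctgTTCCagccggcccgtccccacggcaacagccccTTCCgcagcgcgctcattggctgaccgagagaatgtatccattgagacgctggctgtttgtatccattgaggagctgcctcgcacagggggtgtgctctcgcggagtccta
Spry1 (chr3:37639697-37639996, plus strand): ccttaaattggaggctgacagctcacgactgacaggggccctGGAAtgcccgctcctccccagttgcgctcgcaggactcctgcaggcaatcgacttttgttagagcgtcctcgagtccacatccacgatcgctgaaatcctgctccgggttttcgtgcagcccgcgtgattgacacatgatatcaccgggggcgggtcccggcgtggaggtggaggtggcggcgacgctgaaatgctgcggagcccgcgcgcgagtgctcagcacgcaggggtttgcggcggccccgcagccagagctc
Spry2 (chr14:105896770-105897069, minus strand): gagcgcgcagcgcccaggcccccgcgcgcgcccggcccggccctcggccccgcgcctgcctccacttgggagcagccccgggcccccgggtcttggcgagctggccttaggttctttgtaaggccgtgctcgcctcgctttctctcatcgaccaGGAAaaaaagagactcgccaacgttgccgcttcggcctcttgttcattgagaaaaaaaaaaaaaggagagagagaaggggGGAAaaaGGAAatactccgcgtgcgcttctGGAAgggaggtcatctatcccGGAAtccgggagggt
The Dusp6 window held 6 cores, the Spry2 window 5 and the Spry1 window 1. Of all 32851 promoters of that length 15.7% held at least 6, 28.6% at least 5 and 96.0% at least 1, so that these counts are common. The longer ETS site CCGGAA, which contains the core, was present once in the Spry2 window and in neither of the others, and 14.9% of all promoters held it. The AP-1 site TGANTCA (7.81% of promoters), the cAMP response site TGACGTCA (1.79%) and the TCF/LEF site CTTTGAT (3.73%), the last being the kind of site through which beta-catenin acts, were absent on both strands from these 3 windows. A match is only a run of letters, and its absence says nothing of sites elsewhere.

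The rest of the pathway was followed through 6 lists with 85 genes, of which 68 were measured. With the inhibitor 21 of the 68 were higher and 20 lower, and the median difference was -0.05. In washout against control 4 were higher and 6 lower (median -0.03). The called share was 60.3% in Ro and 14.7% in washout against control, beside 42.1% and 10.1% of all features, with no common direction.

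**Figure D4:**
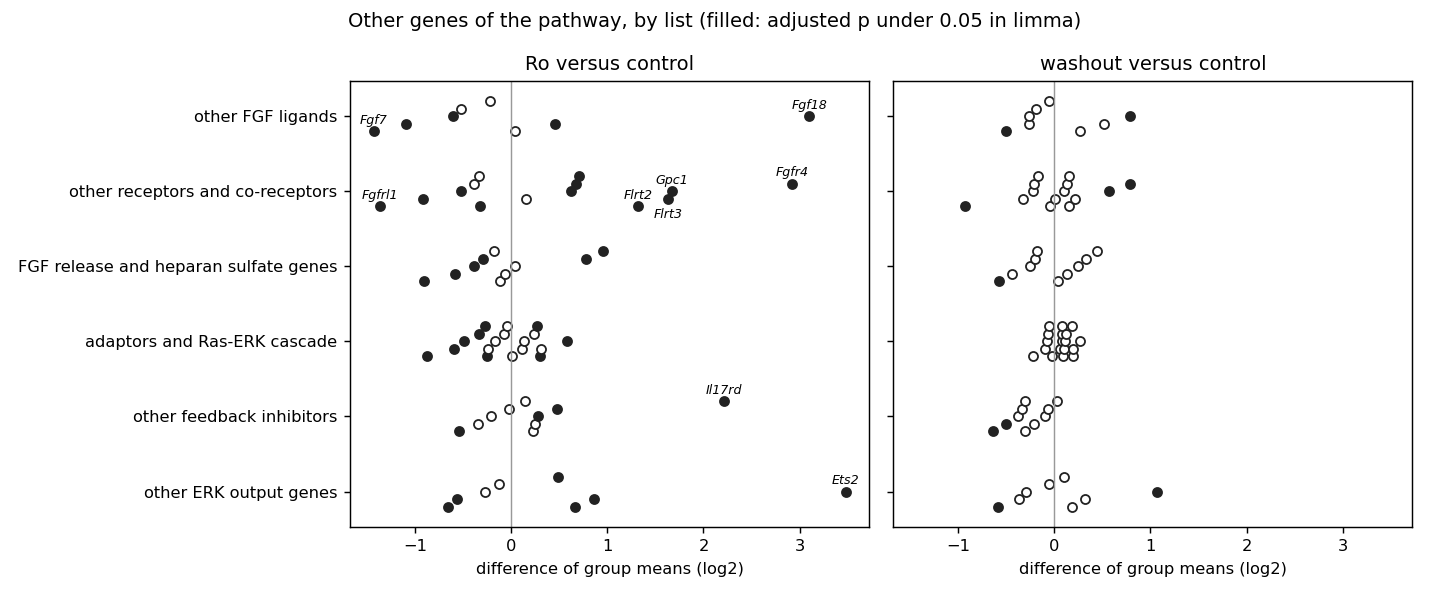
Differences of group means (log2, horizontal axis) for the 68 measured genes of the 6 lists, for Ro against control and washout against control, with filled points for adjusted p under 0.05 in limma. Ets2, Fgf18 and Fgfr4 rose most in Ro (3.48, 3.10 and 2.92), and in washout no gene of these lists was beyond 1.07.

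Of 8 other FGF family genes measured, 2 rose and 3 fell with the inhibitor (62.5% called, against 42.1% of all features). These are not all ligands, since Fgf11, Fgf12, Fgf13 and Fgf14 encode intracellular relatives. Fgf18, a ligand best known from bone and cartilage, was at -0.16 and 0.02 in control and at 3.00 and 3.05 in Ro. It rose by 3.10 ± 0.13 (adjusted p = 0.00019) and was back at 0.05 and 0.34 in washout. Fgf7, a mesenchymal ligand of Fgfr2, changed by -1.43 ± 0.19, with only 1 of 2 Ro arrays well above background. Fgf12, an intracellular relative that is not secreted, changed by -1.09 ± 0.08 and was still lower in washout (-0.50 ± 0.08 against control). Fgf23, the phosphate-regulating hormone, was dim, near the lowest signal well above background. Its level was -4.11 and -4.10 in control, -4.81 and -4.62 in Ro, and -3.29 and -3.34 in washout. It was lower in Ro (-0.61 ± 0.09) and higher in washout (0.79 ± 0.09) than in control. Fgf18 thus moved against Fgf1, the ligand with the largest fall.

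Of 14 other receptors and co-receptors 7 rose and 4 fell with the inhibitor (78.6% called, against 42.1% of all features). Fgfr4, the remaining kinase receptor, was near background in control, at -4.62 and -4.45, and at -1.59 and -1.64 in Ro. It rose by 2.92 ± 0.14 (adjusted p = 0.00023), opposite to Fgfr1 and Fgfr3, and only 1 of 2 washout arrays was then well above background. Fgfrl1, a receptor without a kinase domain, fell by 1.37 ± 0.10 and in washout stood at -0.04 ± 0.10 relative to control. The heparan sulfate proteoglycan gene Gpc1 rose by 1.67 ± 0.07 and Flrt3, a membrane partner of FGF receptors, by 1.63 ± 0.08. In washout Flrt3 (0.79 ± 0.08) and Gpc3 (0.57 ± 0.09) were above control and Sdc3 (-0.93 ± 0.09) below it.

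Of 10 genes for FGF release and heparan sulfate 2 rose and 4 fell (60% called, against 42.1% of all features). Hs6st2 and Hs2st1, sulfotransferases of these chains, rose by 0.95 ± 0.12 and 0.78 ± 0.09, while Hs6st1 fell by 0.91 ± 0.07 and Ext1, which builds the chain, by 0.58 ± 0.09. Fgfbp3, a carrier that frees FGF from the matrix, was the gene of this list still lower in washout (-0.58 ± 0.07). Of 18 adaptors and members of the Ras-ERK cascade 3 rose and 6 fell (50% called, close to the 42.1% of all features). In washout against control 0 of them passed the test in limma, where 10.1% of all features did. Their lowest adjusted p was 0.14, with 1 higher and 0 lower at an unadjusted p under 0.05. The kinase genes Map2k1 and Braf fell by 0.88 ± 0.10 and 0.49 ± 0.08 and the docking protein gene Gab1 by 0.60 ± 0.08, while the adaptor gene Shc1 rose by 0.58 ± 0.07.

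Of 10 other feedback inhibitors measured, 3 rose and 1 fell with the inhibitor (40% called, against 42.1% of all features). From Ro to washout 0 rose and 5 fell in limma (50% called, against 41.5% of all features). At an unadjusted p under 0.05 the counts were also 0 and 5. Il17rd (Sef), a membrane inhibitor of FGF receptor signalling, was at -0.97 and -0.92 in control, 1.32 and 1.22 in Ro, and -0.98 and -1.10 in washout. It rose by 2.21 ± 0.08 with the inhibitor (adjusted p = 0.00017) while Dusp6 fell. Spred1 and Spred2, relatives of the Sprouty proteins, rose by 0.48 ± 0.14 and 0.28 ± 0.08. The phosphatase gene Dusp7 fell by 0.54 ± 0.09 and was lower in washout too (-0.64 ± 0.09), as was Dusp9 (-0.50 ± 0.09).

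Of 8 other genes known as ERK outputs, 4 rose and 2 fell with the inhibitor (75% called, against 42.1% of all features). The 2 that fell, as Dusp6 and Spry2 did, were Epha2 and Etv5. Ets2, an ETS factor, rose by 3.48 ± 0.08 (adjusted p = 0.000052). Phlda1 rose by 0.86 ± 0.09 and was the highest of the list in washout, 1.07 ± 0.09 above control. The ephrin receptor gene Epha4 rose by 0.66 ± 0.11, while Epha2 fell by 0.66 ± 0.07 and rose by 0.76 ± 0.07 from Ro to washout. Etv4, an ETS factor widely used as an FGF readout, rose by 0.49 ± 0.07 in Ro and was below control in washout (-0.59 ± 0.07). Its relative Etv5 fell by 0.56 ± 0.16 in Ro (adjusted p = 0.043), and in washout its difference from control was -0.37 ± 0.16 (adjusted p = 0.21).

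Markers of cell types moved as well. The counts below stand beside 22.7% of all features lower, 19.4% higher and 42.1% called in either direction with the inhibitor. In a bulk culture fewer cells of a type and less RNA per cell cannot be told apart. Of 9 astrocyte markers 6 fell and 2 rose with the inhibitor, and their summed linear level, in units of the array's 75th percentile, was 183 to 193 in control, 130 to 138 in Ro and 181 to 191 in washout. Thus the astrocyte sum was lower in Ro and back in washout, as was Fgfr3. Of 6 pericyte and smooth muscle markers 5 fell with the inhibitor (sum 667 to 729 in control, 242 to 246 in Ro, 522 to 544 in washout), and of 8 microglial markers 5 fell (5.95 to 6.16, 3.62 to 4.57 and 5.85 to 6.52). Of 4 oligodendrocyte precursor markers 4 fell (24.2 to 24.5, 6.04 to 6.05 and 15.0 to 15.8), and of 4 ependymal markers 4 fell (33.8 to 34.5, 11.6 to 13.5 and 38.2 to 41.1). Of 5 neuronal markers 3 fell and 1 rose (11.2 to 11.3, 6.61 to 6.99 and 10.7 to 11), and of 7 meningeal fibroblast markers 5 fell and 1 rose (19.5 to 24.7, 15.8 to 16.5 and 10.8 to 11.2). The oligodendrocyte precursor and pericyte sums, like Fgf1, were lowest in Ro and below control in washout, while the fibroblast sum was lowest in washout. A linear sum rests mostly on the brightest genes of its list. The dim smooth muscle marker Myh11 was at -3.36 and -3.16 in control and at -3.47 and -4.47 in Ro. In washout it was at -4.55 and -3.8, so that Ro and washout overlapped, unlike Fgf1. Of 5 endothelial markers only 1 (Kdr) was measured, and this gene moved opposite to Fgf1. It rose by 3.11 in Ro and was 0.97 above control in washout. Its level was 0.294 to 0.298 in control, 2.40 to 2.73 in Ro and 0.545 to 0.617 in washout. A single gene cannot stand for the cell type. The defining endothelial marker Cdh5 was well above background on 2 of 6 arrays. The defining markers Aif1 and Cx3cr1 of microglia, Rbfox3 of neurons, Foxj1 of ependyma, Lum of fibroblasts and Myh11 of smooth muscle were well above background on 6 of 6 arrays. Rbfox3 was dim, at -4.34 and -4.09 in control and -5.28 and -4.97 in Ro, near the lowest signal well above background. Lum was not lower in Ro (-2.22 and -2.11) than in control (-2.53 and -2.46). For oligodendrocyte precursors the defining marker Sox10 had no named probe on the array. The part of these cells in the differences of the 10 genes was not tested.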

How the data were processed

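The authors labelled RNA with Cy3 and hybridised 6 one-colour Agilent arrays, per the labels' protocols. The deposited scanner files hold an intensity per spot on a linear scale, background-subtracted and detrended within the array by Feature Extraction (version 10.5.1.1 per the file headers, 10.1 per the submitters' processing notes) and left unscaled across arrays. A deposited value table for these arrays holds a linear ratio per probe (column medians 0.871 to 0.987). Its probe-centred log2 values matched those of the intensities at r = 0.993 to 0.997, so that its direction is the same; how it was centred and scaled is not given in the sources used here, and it served as an alternative.

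Spots marked as faulty were left out, spots of a probe were averaged on the log2 scale, and 106 of 41174 probes without a usable spot on every array were dropped. The array's 75th percentile was subtracted. A probe was kept where 1 or more groups had both arrays well above background (26474 probes). Accessions were named through RefSeq (61.0% of probes), and probe positions were not used here because the table's build differs from the mm9 of the file headers. A gene was taken by its brightest kept probe, and single probes were also fitted over all kept probes. limma 3.58.1 in R 4.3.3 fitted 1 mean per group to all 6 arrays (3 residual and 2.09 prior degrees of freedom). Groups not well above background are given as a lower bound, from the lowest signal well above background on each dim array. That signal is a limit of the array and not of the single probe, so that such bounds are approximate. The fit was also run on simulated data with independent noise, no filter and only a small share of probes changed, in Ro alone. Here far more features were called, so that this run does not measure the error rate of these calls. Figures used matplotlib 3.10.9 in Python 3.11.15.

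The members and lists were chosen with earlier results of these data known. Named were all members with all probes, up to 4 called genes per list and comparison by size for Ro or washout against control, and the 3 features nearest in pattern to the member with the largest difference. Alternatives were the background correction, scaling, filter, probe choice, variance model, arrays in the fit, pairing, the authors' values and leaving out each array. The bright regions, single probes and a level-matched centring (each feature against the median of its 500 nearest in level) were added after seeing the data.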

Additional observations from a re-analysis of the deposited data

How the results depend on the processing

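Of 567 values of the 10 genes under the alternatives, 484 kept direction and side of the threshold, 52 lost and 17 gained a call, and 14 changed sign; of those 14, Fgf9 for Ro against control and Spry2 for washout against Ro had passed the test. For Ro against control they were Fgf9 (-0.02) and Spry4 (-0.03) with normexp, and Spry4 without control 1 (-0.15) and without Ro 1 (-0.04), over a range of -0.15 to 0.31 when single arrays were left out. For washout against Ro they were Fgf2 without washout 2 (-0.05, range -0.05 to 0.35) and the dim Spry2 probe (-0.09). For washout against control they were Fgfr3 with normexp (0.01) and without washout 1 (0.05), Fgfr2 with the mean of probes (-0.13), without control 2 (-0.02, range -0.02 to 0.17) and on its other probes (-0.03 and -0.42), and Spry2 with the mean of probes (-0.07) and its dim probe (-0.35). The cause was not tested. The 567 values are not independent of each other. Leaving out an array of the group not compared gave the same values as fitting only the 2 groups compared. The other variance model and the replicate block left every difference unchanged, so that a change of sign was not possible there. The count of 484 is therefore no measure of robustness.

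Features called in washout against control numbered 2028, and 141 with no filter, 766 with the replicate block and 757 with only the 2 groups; members called were 5, and 1, 3 and 3; pathway genes called were 10, and 0 with no filter and 4 with only the 2 groups. Leaving out each array gave 4527 to 8807 features, 3 to 6 members and 25 to 45 pathway genes called for Ro against control, 4754 to 7721, 5 to 8 and 27 to 36 for washout against Ro, and 202 to 1321, 2 to 3 and 0 to 8 for washout against control. The share of calls that were higher was 51.5% for washout against Ro, falling to 40.5% when arrays were centred on their median and to 38.9% in the authors' table; these put the median of all features at -0.11 and -0.12; for washout against control it was 40.9%, 30.8% and 29.1%.

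Same-numbered arrays showed little common deviation (r = -0.119, 0.078 and -0.111 between groups). The labels do not say whether they share a litter or day. A small shared effect could be hidden by the spread between arrays, so that these correlations cannot decide whether the numbers pair them. With the replicate block Fgfr1 and Fgf9 lost their calls in Ro (adjusted p = 0.053 and 0.058), as did Spry1 and Dusp6 in washout against control (adjusted p = 0.08 and 0.062). The lowest level well above background, -5.63 to -4.80 on the 6 arrays, bounds what could be measured.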
